A study of Mus musculus with 2 samples.

Results

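Contacts between positions 0.1 to 3 Mb apart on chromosome 1 of mouse embryonic stem (ES) cells were described by the gene content around their midpoint. In Hi-C, DNA is cut and religated inside fixed nuclei, and the ends of each religated molecule are sequenced, which gives a pair of positions that had been in contact. The members were the pairs with both ends on chromosome 1, from 3 Mb to position 90750000 (assembly GRCm38, mm10), and 0.1 to 3 Mb apart. There were 1244596 such pairs in wild-type cells and 1016662 in *Lin28a* knockout cells. They were among 3445388 and 2634001 pairs within chromosome 1 (cis) whose first end lay in this region. Each pair was assigned to the 1 Mb block that held its midpoint. The ends of a pair 1 Mb or more apart cannot both lie in that block. The class therefore describes the midpoint and need not describe the ends. The 88 blocks were classed as having few (0 to 3), some (4 to 9) or many (10 or more) protein-coding genes by the RefSeq annotation, each gene counted at its 5′ start. The rule itself uses position, distance and gene count alone, and no difference between the libraries.

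The study asked how higher-order chromatin structure differs between wild-type and *Lin28a*-/- ES cells. Both groups grew for 2 days on gelatin with mouse embryonic fibroblast (MEF) feeder cells in LIF/2i medium, which keeps ES cells pluripotent. LIN28A is an RNA-binding protein. The study made knockout clones by CRISPR/Cas9 aimed at exon 2 and also used ES cells of knockout mice, and which of these gave the Hi-C library is not given in the sources used here. With 1 cell population per group, loss of *Lin28a* and the history of the culture cannot be told apart. There was 1 library per group, so that each value given for wild-type or knockout cells is that of 1 library. The labels speak of replicates that the pairs do not name. The leading fields of the read names gave 2 sets of reads per library, called sequencing runs here. Whether these sets are runs, lanes or the replicates was not tested. With 1 library per group, no test between the groups was made. Differences were set against counting error and against random equal parts of the same library.

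Along a chromosome, contacts become rarer with distance. Cohesin is thought to extrude loops of chromatin until it meets CTCF bound to DNA, which packs the genome into domains, and the local slope of the decay curve reflects this packing. A slope near 0 means that contacts are lost slowly with distance, and a more negative slope means that they are lost fast.

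The library facts that touch these contacts were as follows. Of cis pairs at least 20 kb apart with the first end in the region, the members were 40.9% in wild-type cells and 43.2% in knockout cells. Pairs 30 Mb or more apart were 23.1% and 18.4% of them. Both ends had a mapping quality of 30 or more in 87.2% and 85.9% of the members. The target locus, on chromosome 4, received 12 and 15 ends from this region of chromosome 1, too few to show a small deletion. The knockout library had more trans partners on chromosome 8 (7.42% of autosomal trans pairs against 5.56%) and chromosome 6 (8.60% against 6.93%), and the part of these differences in the contacts described here was not tested. A stretch from 22.16 to 22.87 Mb held 3 ends in wild-type cells and 1 in knockout cells, where the median 10 kb bin held 737 and 577. It was treated as unavailable.

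The classes differed in sequence as well as in genes. The 38 blocks with few genes held 51 genes, and 10 of these blocks held none. The 34 blocks with some genes held 205 and the 16 blocks with many genes held 241. Median GC content was 38.8%, 41.1% and 44.5% in blocks with few, some and many genes. The density of GATC, taken here as the restriction site, was nearly equal, with medians of 2.49, 2.48 and 2.46 sites per kb. Gene content, GC content and sequence motifs thus changed together along the chromosome and cannot be told apart here.

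The core of the CTCF motif was counted as CCA and AG and GGC, each set apart from the next by 2 bases of any kind, on both strands. Median counts per Mb were 28.5 in blocks with few genes (range 13 to 51), 45 with some (29 to 83) and 86.5 with many (37 to 116). All 88 blocks held such matches, so a match says nothing on its own about binding. One match is shown per class to let the letters be seen. It is the match nearest the middle of the block with the highest count in the class, with the core in capitals, read 5′ to 3′ from the RefSeq genome of GRCm38. They lie at chr1:6573213-6573242 on the plus strand (few), chr1:39497976-39498005 on the minus strand (some) and chr1:74500826-74500855 on the plus strand (many).
few genes: aggggaatgCCAGGAGAGGGCattgggagt
some genes: tcccccttgCCAGCAGGAGGCgctcttccc
many genes: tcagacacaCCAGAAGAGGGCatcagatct

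In both libraries contacts fell off more steeply with distance where genes were many. Contact density is given as pairs per kb of distance and Mb of available midpoints, per 1000000 member pairs of the library. At 106 kb the wild-type density was 21.6 in blocks with few genes, 27.5 with some and 32.0 with many. In the knockout library the densities at this distance were 20.1, 26.4 and 30.5. At 2835 kb the order was turned, with 1.02, 0.770 and 0.709 in wild-type cells and 1.08, 0.808 and 0.717 in knockout cells. Pairs with their midpoint in blocks with many genes thus had the highest density at the near end of the range and the lowest at the far end.

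The density in blocks with many genes over that in blocks with few genes was 1.48 (95% counting interval 1.44 to 1.53) at 106 kb in wild-type cells and 1.52 (1.47 to 1.57) in knockout cells. The ratio was still above 1 at 518 kb, at 1.04 (1.02 to 1.07) and 1.08 (1.05 to 1.11). It was below 1 at 580 kb, at 0.972 (0.948 to 0.997) and 0.9497 (0.923 to 0.977). The curves of the 2 classes therefore crossed between the same neighbouring steps in both libraries. At 2017 kb the ratio was 0.669 (0.648 to 0.691) in wild-type cells and 0.611 (0.589 to 0.633) in knockout cells. All intervals given here cover counting error only.

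**Figure D1:**
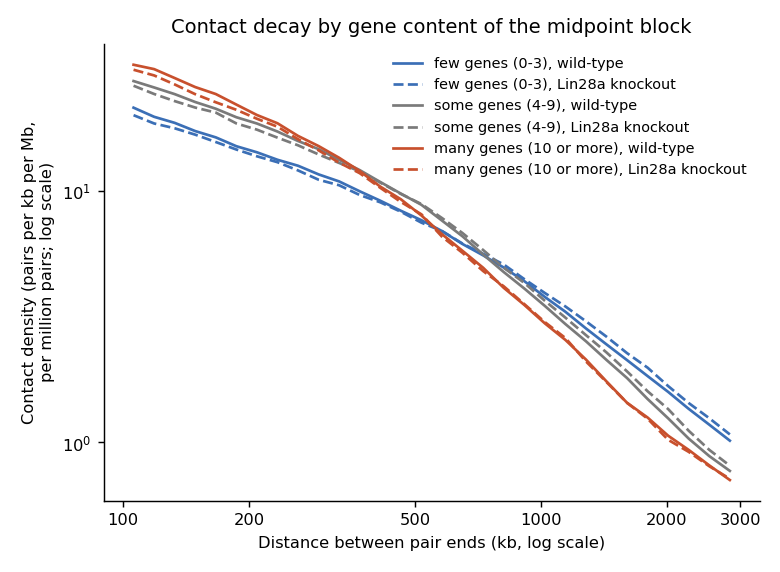
Contact density (pairs per kb and Mb, per 1000000 member pairs, log scale) against the distance between pair ends (kb, log scale) for blocks with few, some and many genes. Solid lines are the wild-type library and dashed lines the *Lin28a* knockout library. The curves of blocks with few and many genes cross between 518 and 580 kb in both libraries.

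The slope was next taken over 3 ranges, by weighted regression of log density on log distance. Between 0.1 and 0.3 Mb the wild-type slope was -0.59 ± 0.01 (counting SE) in blocks with few genes, -0.61 ± 0.01 with some and -0.75 ± 0.01 with many. Between 0.3 and 1 Mb it was -0.89 ± 0.01, -1.16 ± 0.01 and -1.33 ± 0.01. This middle range set the classes furthest apart, with a difference between many and few genes of -0.44 in wild-type cells and -0.47 in knockout cells. Between 1 and 3 Mb the wild-type slope was -1.30 with few genes, -1.52 with some and -1.44 with many. Fitted over this whole range, the steepest class was therefore the one with some genes in both libraries, the knockout slopes there being -1.29, -1.51 and -1.46.

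The local slope, taken over 5 of 30 equal steps of log distance, showed where each class turned. In blocks with few genes the wild-type slope stayed near its shallowest value, -0.57 at 234 kb, and then fell without interruption to -1.28 at 1144 kb, to remain close to -1.30 up to 2260 kb, where it was -1.31. In blocks with some genes it fell from -0.57 at 133 kb to -1.36 at 649 kb, changed little up to 1022 kb (-1.41), and reached its steepest value, -1.60, at 1801 kb. In blocks with many genes it started at -0.62 at 133 kb, was -1.44 at 649 kb, and was steepest at 1282 kb, at -1.62. It then became shallower again, at -1.25 ± 0.04 at 2260 kb. The fall of the slope thus came at shorter distances with more genes, and a return to shallower slopes was largest in the blocks with many genes.

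The knockout library followed the same course. Its steepest local slopes were -1.34 at 2260 kb with few genes, -1.59 at 2017 kb with some and -1.66 at 1282 kb with many. Its shallowest were -0.53 at 133 kb, -0.54 at 133 kb and -0.66 at 187 kb. In blocks with many genes the wild-type and knockout curves thus had their steepest point at the same step.

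Between the libraries, contacts in blocks with few or some genes were lost more slowly with distance in knockout cells. The slope between 0.3 and 1 Mb was -0.89 in wild-type cells and -0.83 in knockout cells with few genes, a difference of 0.059 (0.039 to 0.079). With some genes it was -1.16 and -1.09, a difference of 0.074 (0.054 to 0.094). With many genes it was -1.33 and -1.30, a difference of 0.030 whose interval (-0.00095 to 0.061) included 0. Over 20 random divisions of a library into equal parts, 10 per library, the largest difference between parts was 0.039 with few genes, 0.025 with some and 0.039 with many. The differences with few and some genes lay beyond these values and that with many genes did not. The interval with many genes lay above 0 in 7 of 17 alternatives, as with a correction for coverage (0.041, 0.0097 to 0.072), and its value was as low as -0.030 in the blocks up to 47 Mb, so that this difference stood at the edge of counting error. In the smaller sequencing run of each library the differences were 0.035 (-0.051 to 0.12) with few genes and 0.023 (-0.065 to 0.11) with some, within counting error. Such parts hold fewer pairs than the libraries and carry more counting error. The difference with many genes was smaller than that with few by 0.029, but the interval of this contrast (-0.066 to 0.0080) included 0, so the classes were not shown to differ in it.

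In the nearest and farthest ranges the differences between the libraries were smaller than those of few and some genes between 0.3 and 1 Mb. From 0.1 to 0.3 Mb the knockout slope differed from the wild-type slope by 0.020 with few genes, 0.0054 with some and 0.029 with many, and from 1 to 3 Mb by 0.011, 0.011 and -0.018. All 6 intervals included 0, whereas over all blocks together the difference from 0.1 to 0.3 Mb was 0.016 (0.0015 to 0.030).

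Step by step, the local slope differed by more than in any division of a library at the same step at 4 of 26 steps with few genes, between 368 and 1144 kb. The same held for 4 of 26 steps with some genes, between 294 and 518 kb, and for 0 of 26 with many. At all 8 steps the knockout slope was the shallower. This yardstick varied from step to step, and the largest difference between equal parts at any step, 0.13 with few genes and 0.15 with some, was above every difference between the libraries in these classes. By counting intervals of the libraries themselves, the difference lay above 0 at 9 of 26 steps with few genes, 8 with some and 3 with many, and below 0 at none. Over all blocks together it lay above 0 at 13 of 26 steps. The class with many genes held fewer wild-type pairs (229349) than that with few (519364), so its intervals and yardstick are wider and its counts are not directly comparable. The largest difference with few genes was 0.12 (0.060 to 0.18) at 1144 kb, where the slope was -1.28 in wild-type cells and -1.16 in knockout cells. With some genes it was 0.100 (0.043 to 0.16) at 368 kb, from -0.90 to -0.80. With many genes it was 0.096 (0.0090 to 0.18) at 187 kb, from -0.76 to -0.66, within the spread of divisions (0.12). Neighbouring steps share pairs in their local slope and are not separate measurements.

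**Figure D2:**
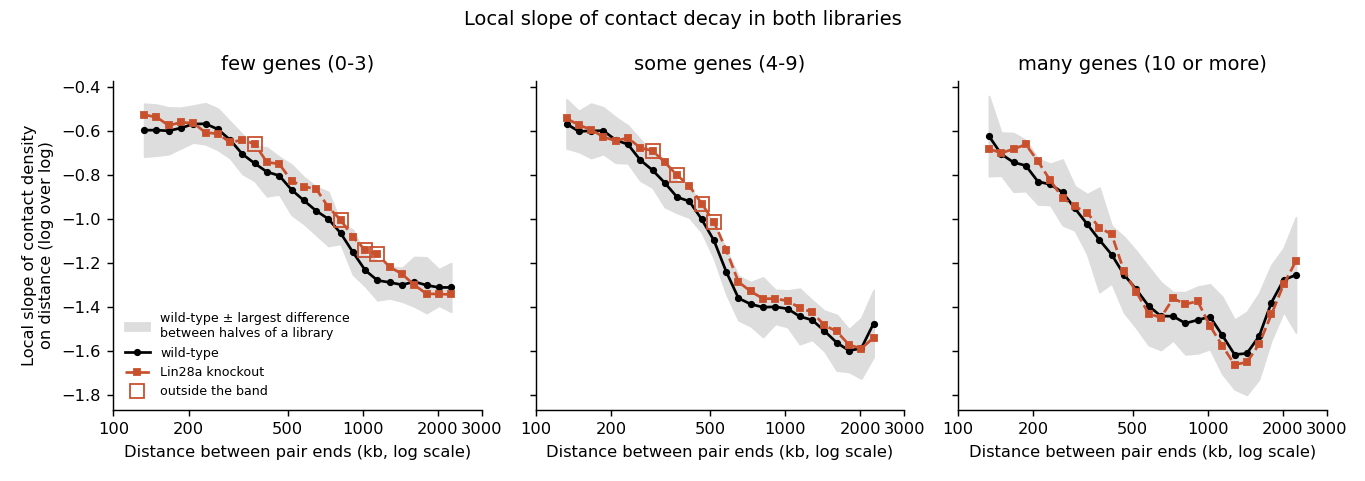
Local slope of contact density on distance (log over log, no unit) against distance (kb, log scale) in blocks with few, some and many genes. Black circles are the wild-type library, red squares the knockout library, and the grey band spans the wild-type value plus and minus the largest difference between random equal parts of a library. Open squares mark the 4 steps with few genes and the 4 with some genes at which the knockout library lay outside the band.

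The densities of the 2 libraries were then set side by side. Each is per 1000000 member pairs of its own library, so a surplus at some distances goes with a deficit at others. With few genes the ratio of knockout to wild-type density ran from 0.934 to 0.978 over the 10 steps up to 0.3 Mb and from 1.04 to 1.08 over the 10 steps beyond 1 Mb. With some genes the ranges were 0.938 to 0.965 and 1.05 to 1.09. With many genes they were 0.927 to 0.970 and 0.963 to 1.02. All classes thus had lower density in knockout cells at the near end. The class with many genes held 18.4% of the wild-type members and 17.97% of the knockout members, which lowers all its ratios. Scaled to the pairs of the class, its ratios beyond 1 Mb ran from 0.987 to 1.04 (median 1.02), against 1.03 to 1.07 (median 1.05) with few genes and 1.04 to 1.08 (median 1.06) with some. Up to 0.3 Mb the scaled ratios ran from 0.951 to 0.995 with many genes, 0.927 to 0.971 with few and 0.934 to 0.961 with some. Before this scaling, the counting interval lay above 1 at 11 of 30 steps with few genes, 15 with some and 0 with many, and below 1 at 12, 11 and 10 steps. These counts were not made on the scaled ratios. With many genes the smaller knockout share lowers the count above 1 and raises the count below 1.

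**Figure D3:**
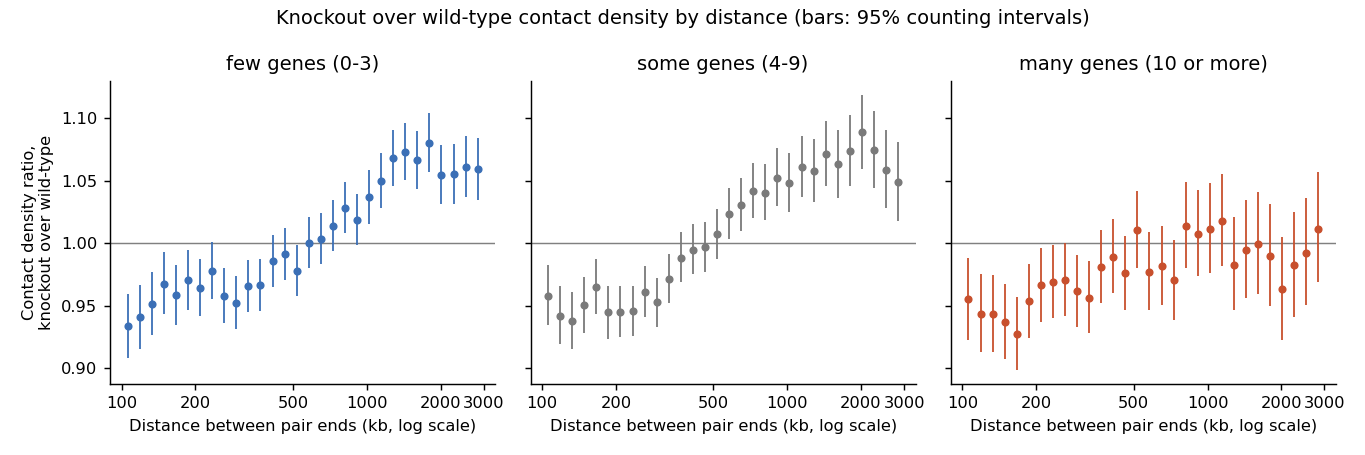
Ratio of knockout to wild-type contact density against distance (kb, log scale) in blocks with few, some and many genes, with 95% counting intervals as bars. Ratios are shown before scaling to the pairs of the class. Beyond 1 Mb all 10 lie between 1.04 and 1.08 with few genes and between 0.963 and 1.02 with many. After scaling they run from 1.03 to 1.07 and from 0.987 to 1.04.

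The share of members that were 1 to 3 Mb apart, called the far share, was taken without a correction for the available length, and so it is set in part by how much of the distance range a block can reach. With few genes it was 32.3% in wild-type cells (167735 of 519364 pairs, exact Clopper-Pearson interval 32.2% to 32.4%) and 34.1% in knockout cells (145461 of 427153, 33.9% to 34.2%). With some genes it was 24.0% (23.9% to 24.1%) and 25.5% (25.3% to 25.6%). With many genes it was 22.5% (22.3% to 22.6%) and 22.9% (22.7% to 23.1%). Far contacts thus made up the largest share where genes were few, in both libraries.

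The far share was higher in knockout cells by 1.76 percentage points with few genes (1.57 to 1.95), by 1.44 with some (1.26 to 1.62) and by 0.479 with many (0.221 to 0.736). The largest differences between equal parts of a library were 0.288, 0.254 and 0.330. The difference with many genes was smaller than that with few by 1.28 percentage points, and the interval of this contrast (-1.60 to -0.96) excluded 0. This interval covers the counting error of pairs only and not the spread between blocks. The contrast between equal parts was at most 0.375. In the 83 blocks that are counted singly further on, the differences were 1.76, 1.37 and 0.479. The far share with many genes minus that with few was -9.84 percentage points in wild-type cells and -11.1 in knockout cells. Pairs 0.1 to 0.3 Mb apart had the opposite sign, with differences of -1.27 (few), -1.79 (some) and -0.81 (many) percentage points. Pairs 0.3 to 1 Mb apart differed by -0.49 (-0.69 to -0.29) with few genes, but by 0.345 (0.140 to 0.550) with some and 0.332 (0.0308 to 0.634) with many.

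For the far share, the sequencing runs gave like values. The larger run of each library gave differences of 1.75, 1.45 and 0.456 percentage points with few, some and many genes, and the smaller run 1.94, 1.35 and 0.503 (the last with an interval of -0.585 to 1.59). The smaller runs held 108835 and 43292 members. The size differed between parts of the chromosome with few and some genes, while with many genes the intervals of the parts overlapped. Over the 44 blocks from 3 to 47 Mb the differences were 1.36 with few genes, 1.16 with some and 0.257 with many (-0.240 to 0.754), and over the rest they were 2.24, 1.74 and 0.570 (0.269 to 0.871). In the first part there were 4 blocks with many genes, and their slope between 0.3 and 1 Mb differed by -0.030 (-0.087 to 0.028), against 0.054 (0.017 to 0.091) in the other 12.

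**Figure D4:**
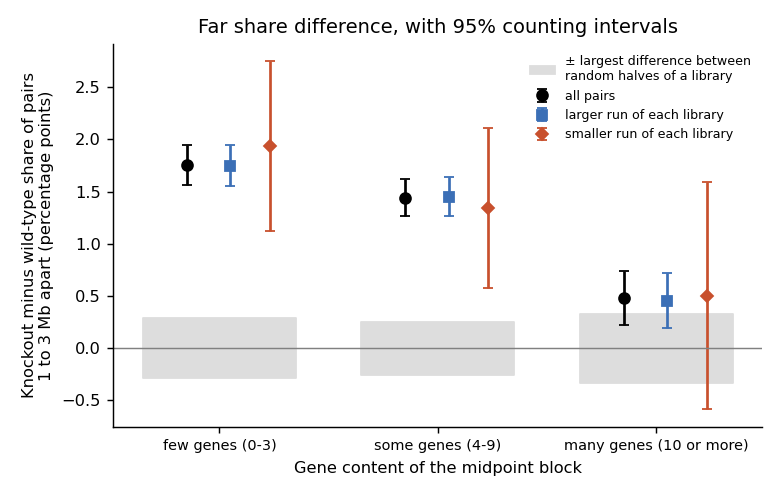
Knockout minus wild-type share of pairs 1 to 3 Mb apart (percentage points) by the gene content of the midpoint block, for all pairs, for the larger and for the smaller sequencing run of each library, with 95% counting intervals. Grey boxes span the largest difference between random equal parts of a library. The differences of all pairs are 1.76 with few genes, 1.44 with some and 0.479 with many.

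Single blocks were compared over 83 of the 88 blocks. The 4 near the ends of the region, where the longest distances run past the region, and the 1 that held the stretch without ends were left out. A block was called when its odds of far against near pairs differed by 1.1-fold or more. Of the 83 blocks, 23 (27.7%) were called higher in knockout cells and 1 (1.2%) lower. With few genes 12 of 36 blocks were higher, with some genes 9 of 31, and with many genes 2 of 16, with 1 lower. In the divisions of a library into equal parts at most 5 blocks, and in the median 2, passed this fold in either direction. In the smaller runs, with far fewer pairs per block, 34 blocks were higher and 8 lower. The shares called with few and some genes (33.3% and 29.0%) were near that of all blocks, and that with many genes was 12.5%, from 2 blocks. With block edges shifted by 0.5 Mb the counts were 11 of 35, 9 of 29 and 4 of 20, so that the share with many genes depended on where the edges fell.

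The fold was above 1 in 36 of 36 blocks with few genes (median 1.08, range 1.005 to 1.23), in 28 of 31 with some (median 1.07, range 0.927 to 1.19) and in 11 of 16 with many (median 1.02, range 0.894 to 1.15). The counting interval of the fold lay above 1 in 24 blocks with few genes, 19 with some and 4 with many. It lay below 1 in 0, 1 and 1. Over all 83 blocks the fold was above 1 in 75, with a median of 1.07. Of these blocks, 6 of the 24 called lay between 3 and 47 Mb, among 41 blocks there, and 18 lay in the rest, among 42. The median fold with few genes was 1.05 in the first part and 1.103 in the second.

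The order of the blocks was shared. Across the 83 blocks the far share of the knockout library followed that of the wild-type library (Pearson r 0.99). The far share fell with the number of genes (Spearman rho -0.69 in wild-type cells and -0.72 in knockout cells), with GC content (-0.72 in both) and with the CTCF core count (-0.75 and -0.76), and hardly varied with the density of GATC sites (0.10 and 0.11). The fold itself had a rho of -0.32 with the number of genes, -0.19 with the core count and -0.07 with GC content. These are descriptions across blocks of 1 library pair. Each pair counts in 1 block only, but pairs of neighbouring blocks can have ends in the same regions. Neighbouring blocks also share base composition, and the blocks are not replicates.

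**Figure D5:**
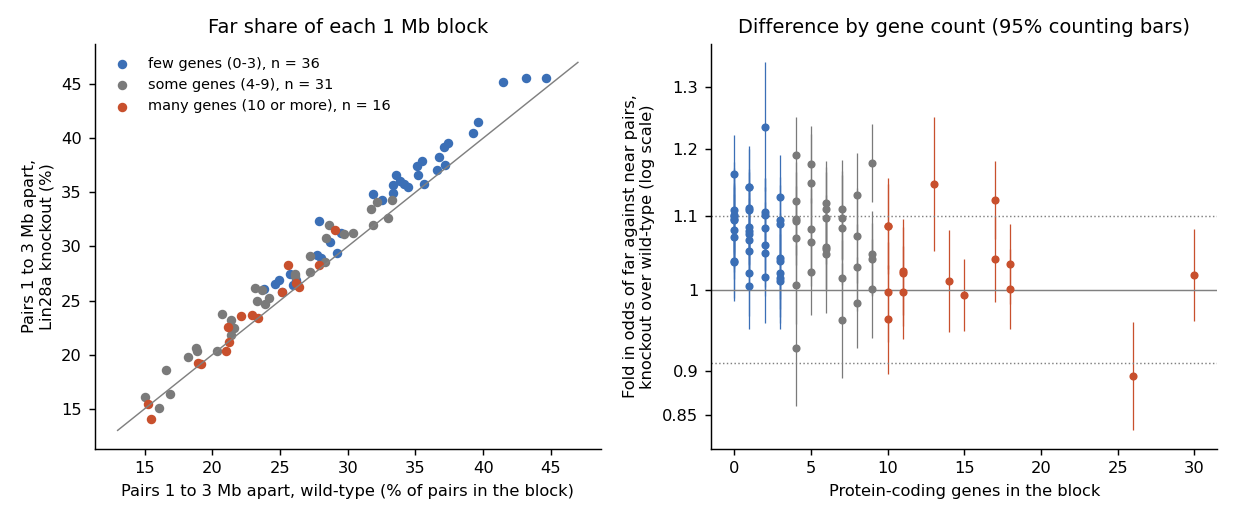
Left, share of pairs 1 to 3 Mb apart (% of the member pairs of a block) in the knockout against the wild-type library, with the line of equal values. Right, fold in the odds of far against near pairs (knockout over wild-type, log scale) against the number of protein-coding genes of the block, with 95% counting bars and dotted lines at the 1.1-fold limits. All 36 blocks with few genes have a fold above 1, as do 11 of 16 with many genes and 75 of all 83.

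Among the blocks with few genes, the 2 highest far shares lay over the bodies of very long genes. The ends of a far pair cannot both lie in its block, so these shares need not describe contacts within the genes. The block at 8 to 9 Mb lies over *Sntg1*, which encodes a syntrophin of neurons (942 kb, chr1:8359739-9301657), and contains no gene start. Its far share was 44.6% (5659 of 12677 pairs) in wild-type cells and 45.6% (4767 of 10465) in knockout cells, a fold of 1.04 (0.985 to 1.09). In this block 92% of the 10 kb bins were usable, and the part of the others in its far share was not tested. The block at 68 to 69 Mb lies almost wholly over *Erbb4*, a receptor of neuregulins (1077 kb, chr1:68031884-69108576). Its far share was 43.2% (3098 of 7178 pairs) and 45.5% (2804 of 6157), a fold of 1.101 (1.03 to 1.18). Their slopes between 0.3 and 1 Mb, -0.62 and -0.66 in wild-type cells, were far shallower than the median of the class (-0.87). The block at 48 to 49 Mb, without any gene, had a slope of -0.57 and a far share of 41.5% in wild-type cells. The slope of the *Epha4* block was -0.59. The class median of the wild-type far share was 33.4%. This share was 33.3% where *Pard3b* starts (1004 kb), 34.4% for *Adgrb3* (767 kb) and 37.2% for *Khdrbs2* (533 kb). A link between far share and gene length was not tested.

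By the mean of the 2 libraries, on which far shares were ranked throughout, the lowest values with few genes were found at 6 to 7 Mb and at 35 to 36 Mb. The first holds *St18*, a zinc finger factor, *Rb1cc1*, a gene of autophagy, and *Alkal1*, a ligand of receptor tyrosine kinases, and has 51 core matches, the most of its class. Its far share was 23.8% in wild-type cells and 26.1% in knockout cells, a fold of 1.13 (1.07 to 1.19), with slopes of -1.11 and -0.97. The second holds no gene start but has the highest GC content of its class (43.9%), with a far share of 25.1% and 25.8%.

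The largest folds with few genes were seen at 67 to 68 Mb, 48 to 49 Mb and 77 to 78 Mb. The block with *Cps1*, which starts the urea cycle (chr1:67122426-67231267), and *Lancl1* had far shares of 27.9% (1646 of 5901 pairs) and 32.3% (1507 of 4662), a fold of 1.23 (1.14 to 1.34). It had the fewest wild-type pairs of all 83 blocks. The block at 48 to 49 Mb, without any gene, was at 41.5% and 45.1%, a fold of 1.16 (1.104 to 1.22), and has 13 core matches, the lowest count of all blocks. The block of *Epha4*, a receptor of ephrins with a role in axon guidance (chr1:77367182-77515107), was at 31.8% and 34.8%, a fold of 1.14 (1.09 to 1.199), although its slope between 0.3 and 1 Mb was -0.59 in both libraries.

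Among the blocks with some genes, the largest fold, 1.19 (1.13 to 1.25), was at 71 to 72 Mb. This block holds *Fn1*, fibronectin of the extracellular matrix, *Abca12*, a lipid transporter, *Bard1*, the partner of BRCA1, and *Atic*, an enzyme of purine synthesis, and its far share was 20.7% (4144 of 20011 pairs) and 23.7% (4135 of 17425). It had the most pairs of its class in both libraries. Next came the block at 39 to 40 Mb with *Rpl31*, a ribosomal protein gene, *Npas2*, a clock factor, and *Map4k4*, a kinase, at 23.1% and 26.2%, a fold of 1.18 (1.12 to 1.24). Its slope between 0.3 and 1 Mb went from -1.55 ± 0.04 to -1.41 ± 0.04. The block at 83 to 84 Mb with *Sphkap*, *Slc19a3*, a thiamine transporter, and *Ccl20*, a chemokine, was at 28.6% and 32.0%, a fold of 1.18 (1.12 to 1.24).

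The highest far shares with some genes were at 66 to 67 Mb, 33.3% and 34.3%, with *Map2*, a microtubule protein of neurons, *Unc80*, a subunit of a sodium leak channel, and *Acadl*, an enzyme of fatty acid oxidation. This block had the fewest pairs of its class in both libraries (6544 and 5467). Next by the mean of the libraries was the block at 5 to 6 Mb, 32.1% and 34.1%, with *Oprk1*, an opioid receptor, and *Atp6v1h*, a subunit of the vacuolar proton pump. The lowest were the blocks on either side of the stretch without ends. They were at 15.0% and 16.1% (21 to 22 Mb, *Kcnq5*, a potassium channel) and at 16.1% and 15.1% (23 to 24 Mb, *B3gat2* and *Smap1*). Partners inside the missing stretch are absent from these shares, and its part in their low level was not tested.

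Among the 16 blocks with many genes, 3 passed the fold. The block at 75 to 76 Mb with 26 gene starts, among them *Nhej1* of DNA end joining, *Speg*, a muscle kinase, and *Asic4* and *Obsl1*, was the only one called lower of all 83. This call was lost with a mapping quality of at least 30 (fold 0.917) and with far pairs taken from 0.5 Mb (0.968). These were 2 of the 11 alternatives that hold the block. Alternatives that only re-class or leave out other blocks cannot change its fold, which stayed at 0.894 in them. With block edges shifted by 0.5 Mb, 0 of 84 blocks were called lower and 24 higher. The far share at 75 to 76 Mb was 15.5% (2231 of 14398 pairs) in wild-type cells and 14.1% (1549 of 11002) in knockout cells, a fold of 0.894 (0.833 to 0.959). Its slope was steep and close in both libraries, at -1.61 ± 0.04 and -1.62 ± 0.05. The block at 85 to 86 Mb, with *Sp100*, a gene of nuclear bodies, *Gpr55* and 2 unnamed gene models, *Gm7592* and *Gm38510*, was at 25.6% and 28.3%, a fold of 1.15 (1.05 to 1.25), which was 1.097 and not called with far pairs taken from 0.5 Mb. It had the fewest pairs of its class (6179 and 4428) and is absent from the alternative that leaves out blocks of low coverage. Its slope was the steepest of all blocks, -2.14 ± 0.08 and -2.04 ± 0.09. Of its 10 kb bins 89% were usable, the lowest share of the 83 blocks, and 100000 of its bases are unknown. Their part in this slope was not tested. The block at 88 to 89 Mb with the *Ugt1a* enzymes, which add glucuronic acid to bilirubin and drugs, was at 29.1% and 31.5%, a fold of 1.12 (1.07 to 1.18), which was 1.09 and not called with a correction for coverage, and 1.05 and not called in the smaller runs. The 17 gene starts of this block include alternative first exons that are annotated as separate genes over shared sequence, so its number of independent promoters is uncertain.

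The block with the next-highest far share of this class, at 65 to 66 Mb, holds *Pikfyve*, a lipid kinase, *Idh1*, an isocitrate dehydrogenase, and *Pth2r*. It was at 27.9% and 28.3%, a fold of 1.02 (0.954 to 1.096), and had the lowest GC content of its class, 39.6%. The block at 86 to 87 Mb with *Ncl*, the gene of nucleolin (chr1:86344719-86359455), *Psmd1* of the proteasome and *Dis3l2*, an RNA exonuclease, was at 15.3% (2401 of 15724 pairs) and 15.4% (1866 of 12104). Its fold of 1.01 (0.947 to 1.08) did not leave counting error.

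Lists of genes were located in the blocks to describe their surroundings. Of the 10 counted blocks with the developmental regulators reported here, 1 was higher, that of *Epha4*, and 0 lower, with a median fold of 1.06. The block with *Wnt6*, *Wnt10a* and *Ihh*, secreted signals, has the most genes of all, 30, and was at 18.9% and 19.2%, a fold of 1.02 (0.961 to 1.08). Of the 10 blocks with long or neuronal genes, 3 were higher (*Pard3b*, *Nrp2* and *Dner*) and 0 lower, with a median fold of 1.05. Genes of the lists were placed by their 5′ start, which puts *Erbb4* in the block at 69 to 70 Mb (fold 1.02) and not in the block over its body described above.

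The next list held nucleolar, ribosomal and translation genes with *Hspd1* and *Hspe1*, which encode a mitochondrial chaperonin. Of its 7 blocks, 1 of which holds only this last pair of genes, 2 were higher, those of *Rpl7* (23.7% and 26.0%) and *Rpl31*, and 0 lower. The median fold was 1.05. The last list held genes of fibroblasts, and so of the feeder cells: the matrix genes *Col3a1*, *Col5a2* and *Fn1*, and *Igfbp2* and *Igfbp5*, which encode secreted binding proteins of insulin-like growth factors. Of its 3 blocks, 1 was higher, that of *Fn1*, and the folds ran from 1.07 to 1.19. Contacts do not show which cells were sampled, and the share of feeder cells in the libraries was not tested. The shares called in the lists rest on 10 blocks or fewer and were read against 27.7% and the median fold of 1.07 of all blocks.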

How the data were processed

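Hi-C was made from 1 wild-type and 1 *Lin28a* knockout library. The processing notes of the submitters name CASAVA 1.8, Bowtie2, HiC-Pro and the build mm10. The authors deposited lists of valid pairs with the position of each end (a coordinate, used as given) and a mapping quality score for each end, which ran from 11 to 42. The study's methods do not describe this assay. The lists used here were partial, which set the region. Pairs were counted in 30 equal steps of log distance by midpoint block, and divided by the length of midpoints whose both ends lie in usable 10 kb bins. Slopes were fitted by regression weighted by counts (numpy 2.4.6, scipy 1.17.1, pandas 2.3.3, Python 3.11.15). Intervals of shares are exact, and those of slopes, differences and folds are normal with Poisson or binomial variance, all at 95%.

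Genes came from RefSeq on GRCm38, with GENCODE M21 as an alternative. One gene of the lists is not reported here. The members and lists were chosen with earlier results of these data known. After a first run, bins with under 10% of the median number of ends (123 of 8775) were made unavailable and 1 block that held 71 of them was left out of values per block. The 10 divisions per library, the split at 47 Mb and the alternatives with all known bins or only the blocks counted singly were also chosen after seeing the data. The named blocks are, per class, those with up to 3 of the largest folds past 1.1 in each direction and the 2 highest and 2 lowest far shares by the mean of the libraries. Odds were taken with 0.5 added to each count.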

Additional observations from a re-analysis of the deposited data

How the results depend on the processing

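Of 124 values from 18 alternatives for 8 results (differences in far share and slope by class, their contrast and the number of blocks called), 110 stayed within the counting interval of the reported value (or within 1.5 times of it for the count), 14 moved further, and 0 of the differences beyond counting error changed sign. Some of these values could not move. Gene class does not enter the fold of a block, so the count stayed at 24 with both other ways of counting genes. All 16 blocks with many genes are counted singly, so that alternative left their values unchanged. For the blocks past 47 Mb the raw count was judged, 18 of 42 blocks against 24 of 83. With both ends required in blocks of the class, the far share difference was 1.49 with few genes and 1.14 with some. With far pairs taken from 0.5 Mb, it was 2.12 with some and 0.867 with many. In the smaller runs alone the slope difference was 0.035 with few genes and 0.023 with some, both within counting error, and 42 blocks passed the fold (34 higher, 8 lower) in place of 24. Chosen after seeing the data, the blocks from 3 to 47 Mb gave far share differences of 1.36 (few) and 1.16 (some), a slope difference of -0.030 with many genes and 6 blocks called. The blocks past 47 Mb gave 2.24 (few), 1.74 (some) and a contrast of many and few genes of -1.67. The slope difference with many genes had an interval above 0 in 7 of 17 alternatives and not in the reported value. The cause was not tested. The contrast of many and few genes ran from -0.96 to -1.67 over all alternatives. Depth limits single blocks, which held 4428 to 23122 pairs. No paired analysis was possible because each group had 1 library.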
